A study of Mus musculus with 2 samples.

Results

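The genes examined here encode parts of the axoneme, the microtubule and motor core of motile cilia and sperm flagella. They were the rows of a mouse gene count table whose Ensembl identifier maps, in the GENCODE annotation of GRCm38, to a protein-coding symbol that starts with Dnah, Cfap, Rsph or Drc and a digit, together with Hydin and Ttc29. This gave 58 genes of the 46983 in the table, of which 15 were Dnah, 30 Cfap, 8 Rsph and 3 Drc genes. Hydin and Ttc29 had been added because of their high ratio in the same comparison, so their values are a description. Cfap99, which the annotation also holds, was not analysed here.

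The axoneme of a motile cilium is a ring of doublet microtubules around a central pair. Outer and inner dynein arms on the doublets make them slide, radial spokes and the central apparatus regulate the arms, and the nexin-dynein regulatory complex links neighbouring doublets. RFX factors, FOXJ1 and, upstream of it in multiciliated cells, GMNC, MCIDAS and p73 switch these genes on, and sperm use partly different versions of the same parts. Many other cells carry a non-motile primary cilium, which lacks dynein arms and radial spokes.

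Total RNA of 46C mouse embryonic stem cells had been sequenced in 2 libraries. For the knockdown library the cells carried a hairpin that targets linc1557, a long noncoding RNA, and for the control library they carried a control hairpin. Both were grown on feeder cells in medium with serum and leukaemia inhibitory factor (LIF), the hairpin was delivered with the pLKO.1 vector, and infected clones were picked after puromycin selection. The labels do not say how many clones were pooled, and linc1557 itself was not matched to a row, so the knockdown could not be checked here.

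Each group had 1 library, so replicates could not be compared, and nothing here was tested. Totals were 26693282 counts in the knockdown library and 23146210 in the control library. Levels are given in CPM, counts scaled to a common library size, after TMM scaling. A gene entered the comparison when it reached 1 CPM in either library, about 26 counts in the knockdown or 25 in the control library. A gene with few counts can thus enter only through the library in which it is higher, which favours low genes that differ. Calls of higher or lower go by size and mean a difference of at least 2-fold for which the exact 95% Clopper-Pearson interval of the ratio excluded 1. Intervals stand in brackets after a ratio and cover counting error only, not the spread between cultures or clones. In bulk RNA, fewer cells of a type and less RNA per cell cannot be told apart.

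Most axoneme genes did not differ by this rule between the knockdown and the control library. Of the 58, 28 entered. Of these, 5 were called higher (Ttc29, Hydin, Dnah8, Drc3 and Dnah2), 3 were called lower (Dnah7a, Dnah11 and Cfap44) and 20 were not called. The 3 lower genes reached 1 CPM only in the control library, so each entered through the library in which it was higher. In the knockdown library Dnah7a, Dnah11 and Cfap44 stood at 0.429, 0.507 and 0.468 CPM. Over all 15850 entered genes, 4.68% were called higher and 9.48% lower. The median log2 ratio of the entered axoneme genes was -0.04, with 14 genes above 1 and 14 below, against 0.02 over all entered genes. Without Hydin and Ttc29 it was -0.20 over 26 genes, of which 3 were called in each direction. Low genes were called more often. Among entered genes under 10 CPM in both libraries, 8.18% of 6429 were higher and 16.3% lower, and of the 20 axoneme genes among them 2 were higher and 3 lower.

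**Figure D1:**
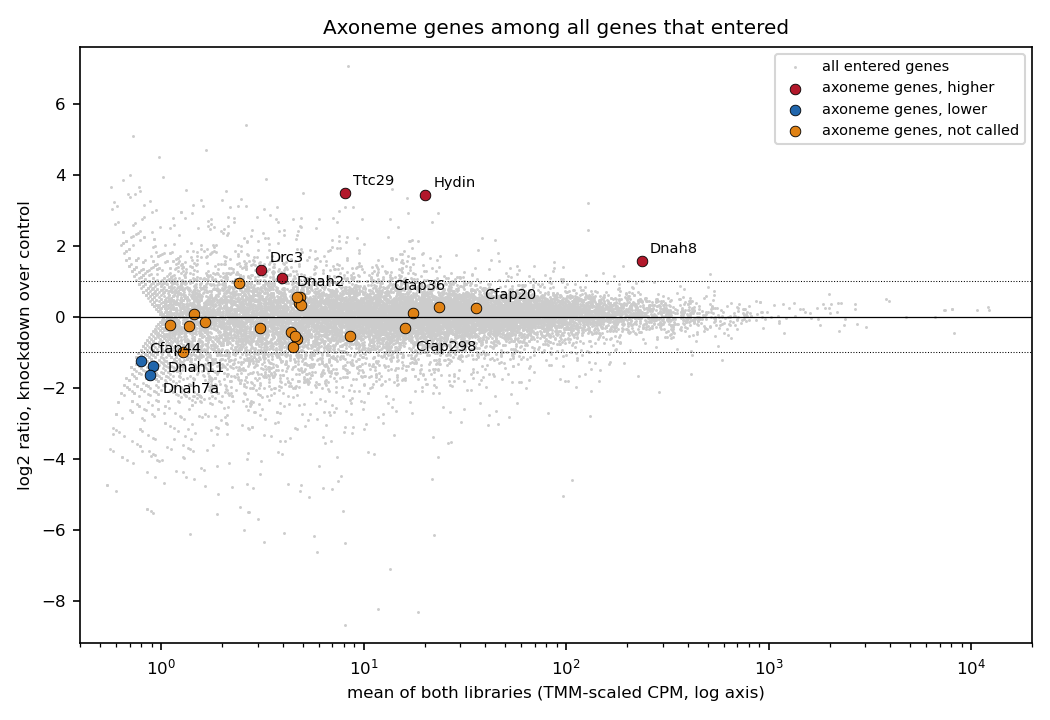
Log2 ratio of knockdown over control (vertical axis) against the mean TMM-scaled CPM of both libraries (log axis), for all 15850 entered genes in grey and the 28 entered axoneme genes in colour. Dotted lines mark 2-fold. Hydin, Ttc29 and Dnah8 lie above most genes of their level, most other axoneme genes lie between the dotted lines, and the 3 lower genes sit near 1 CPM, where the ratios of all genes spread widely.

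Summed over the 58 genes there were 14816 counts in the knockdown against 7065 in the control library, a ratio of 1.97 (1.92 to 2.03). Dnah8 gave 61.2% of these counts in the knockdown library and 40.7% in the control library. Together Dnah8, Hydin and Ttc29 gave 10388 counts, or 70.1%, in the knockdown library and 2991 counts, or 42.3%, in the control library. Without these 3 genes the remaining sums were 4428 counts in the knockdown against 4074 in the control library, a ratio of 1.02 (0.980 to 1.07). The summed difference thus rested on these 3 genes, which were left out together after their values were seen.

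Most axoneme genes were scarce in both libraries. In the knockdown library 24 of the 58 reached 1 CPM, 7 reached 10 CPM and 4 had 0 counts, and in the control library 28 reached 1 CPM, 6 reached 10 CPM and 2 had 0 counts. Cfap97d2 had no count in either. Per kb of the deposited gene length, the median axoneme gene had a level of 0.145 CPM per kb in the knockdown library and 0.171 in the control library.

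**Figure D2:**
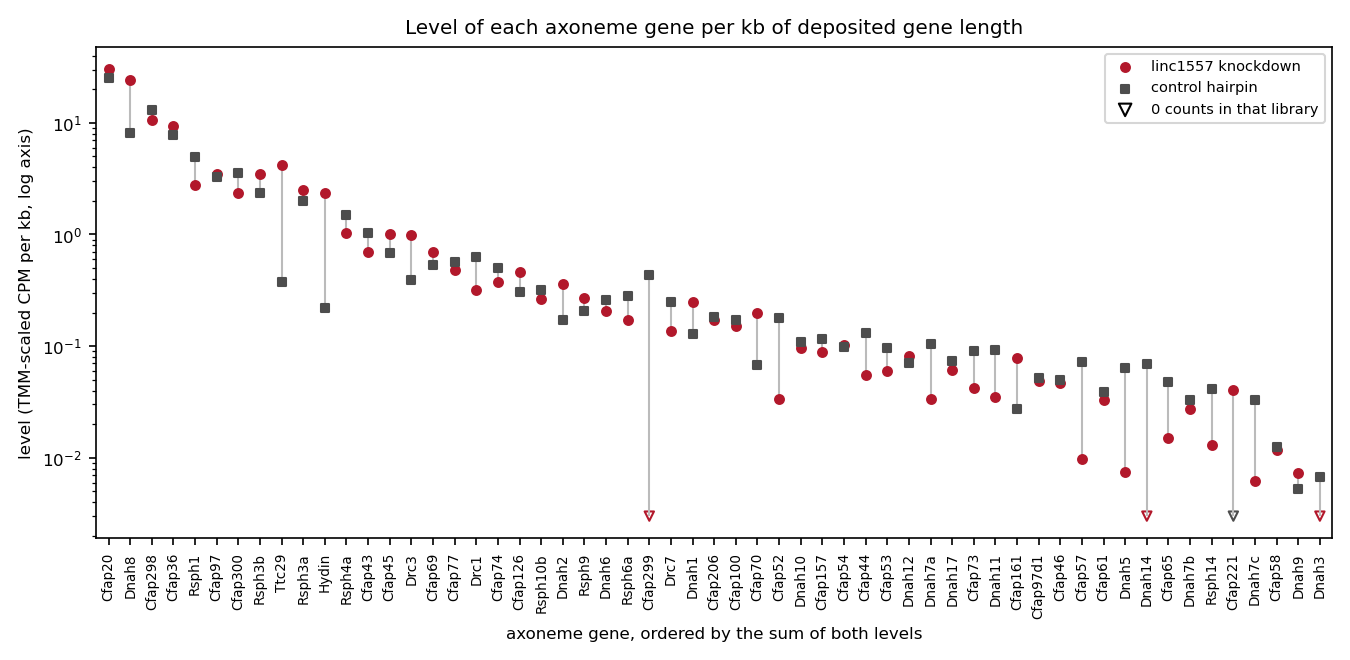
Level of each axoneme gene with at least 1 count, in TMM-scaled CPM per kb of the deposited gene length (log axis), with the knockdown library as red circles and the control library as grey squares. Open triangles at the bottom mark a library with 0 counts, and grey lines join the pair of values of a gene. On this length Cfap20 had the highest level, 30.1 CPM per kb in the knockdown library, against 8.75 CPM per kb, at rank 4, on its longer GENCODE length, and the long lines at Ttc29 and Hydin stand out among the more abundant genes.

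Hydin, a giant protein of the central apparatus whose loss in mice causes hydrocephalus, had 947 counts in the knockdown library and 83 in the control library. Its level was 37.0 CPM in the knockdown against 3.44 CPM in the control library, 10.7-fold higher (8.57 to 13.6). Per kb of its deposited length it stood at rank 10 of the axoneme genes in the knockdown library, at 2.34 CPM per kb, and at rank 25 in the control library, at 0.218. Ttc29, a protein needed for the sperm flagellum in mouse and human, had 380 counts in the knockdown against 32 in the control library. Its level was 14.8 CPM in the knockdown against 1.33 CPM in the control library, 11.2-fold higher (7.78 to 16.6). Its rank was 5 in the knockdown library, at 4.19 CPM per kb, and 19 in the control library, at 0.375. Both genes had been chosen for their high ratio, so their higher ranks in the knockdown library restate that choice.

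In the GENCODE annotation of GRCm38, Hydin spans chr8:110266977-110610253 with 88 merged exons, Ttc29 spans chr8:78213297-78394326 with 15 and Dnah8 spans chr17:30624354-30877365 with 98, all on the plus strand.

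Dnah8, an outer arm dynein heavy chain best known from the sperm flagellum, was by counts the most abundant axoneme gene in both libraries. It had 9061 counts in the knockdown against 2876 in the control library, or 354 CPM in the knockdown against 119 CPM in the control library, 2.97-fold higher (2.84 to 3.09). Its level was 24.3 CPM per kb of deposited length in the knockdown against 8.18 in the control library, at rank 2 and 3. The deposited length of 14583 bases is shorter than the 26820 bases of merged exons in GENCODE vM21. On that longer length its level was 13.2 CPM per kb in the knockdown against 4.45 in the control library, at rank 1 and 4. Gene counts do not show whether reads covered the whole transcript.

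The start regions of the 3 genes with the highest counts among those called higher, and of Cfap44, called lower, are shown because the RFX factors bind X-box elements close to the start of many cilium genes. Each window runs from 250 bases before to 50 bases after the RefSeq start on GRCm38.p6, in the direction of the gene. They are chr8:110266727-110267026 on the plus strand for Hydin, chr8:78213092-78213391 on the plus strand for Ttc29, chr16:44394549-44394848 on the plus strand for Cfap44 and chr17:30626686-30626985 on the plus strand for Dnah8. Capitals mark matches, on either strand, to a relaxed X-box (GTNNCC, any 3 bases and GNAAC), to its short part (GTTGCCA) or to the short forkhead letters (TAAACA).
Hydin: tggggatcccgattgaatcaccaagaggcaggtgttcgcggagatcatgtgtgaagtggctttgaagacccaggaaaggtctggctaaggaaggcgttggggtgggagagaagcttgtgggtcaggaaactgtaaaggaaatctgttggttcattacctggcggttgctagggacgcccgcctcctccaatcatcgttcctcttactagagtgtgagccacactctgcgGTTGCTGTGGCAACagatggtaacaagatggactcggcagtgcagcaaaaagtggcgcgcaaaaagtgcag
Ttc29: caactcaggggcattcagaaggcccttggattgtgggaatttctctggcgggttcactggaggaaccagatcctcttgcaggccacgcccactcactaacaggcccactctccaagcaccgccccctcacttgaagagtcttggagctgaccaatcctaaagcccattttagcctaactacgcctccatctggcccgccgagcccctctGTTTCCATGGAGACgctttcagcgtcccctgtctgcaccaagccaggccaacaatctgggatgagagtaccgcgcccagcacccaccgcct
Cfap44: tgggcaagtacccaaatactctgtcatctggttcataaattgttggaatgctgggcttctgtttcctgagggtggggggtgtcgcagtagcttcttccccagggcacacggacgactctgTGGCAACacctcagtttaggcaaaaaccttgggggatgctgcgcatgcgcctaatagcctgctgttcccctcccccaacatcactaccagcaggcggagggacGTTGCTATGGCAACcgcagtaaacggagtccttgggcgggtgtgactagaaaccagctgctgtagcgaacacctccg
Dnah8: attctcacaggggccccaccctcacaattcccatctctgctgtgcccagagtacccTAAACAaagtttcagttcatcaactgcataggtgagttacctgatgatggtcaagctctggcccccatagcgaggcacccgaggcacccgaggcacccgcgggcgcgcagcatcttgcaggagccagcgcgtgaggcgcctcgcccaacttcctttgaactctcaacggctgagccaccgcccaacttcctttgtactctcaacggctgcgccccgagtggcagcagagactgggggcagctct

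Hydin held the X-box letters from base -21 relative to its start, Cfap44 from base -27 and Ttc29 from base -41. The short part overlapped the X-box in Hydin and Cfap44 and occurred a further time in Cfap44. In the Dnah8 window only TAAACA was found, at base -194, and the absence of the other letters says only that they are not in this window. Of the 47 axoneme genes with a window, 8 (17.0%) held a relaxed X-box, against 673 of 27025 genes (2.49%) with a window of the same length. They were Cfap45, Cfap61, Cfap206, Cfap298, Dnah17, Cfap44, Hydin and Ttc29. The short part, inside an X-box or not, was found in 12 of the 47 (25.5%) against 5.02% of all genes, the forkhead letters TGTTTAC in 3 (6.38%) against 4.05%, and TAAACA, which overlaps them, in 9 (19.1%) against 15.1%. A match is a description of letters and not a bound site. Of the genes that hold the X-box letters and entered, Cfap45, Cfap298 and Dnah17 were not called, Cfap44 was lower, and Hydin and Ttc29 had been chosen for their high ratio. Dnah8, Drc3 and Dnah2, the other genes called higher, hold none in a window used here.

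**Figure D3:**
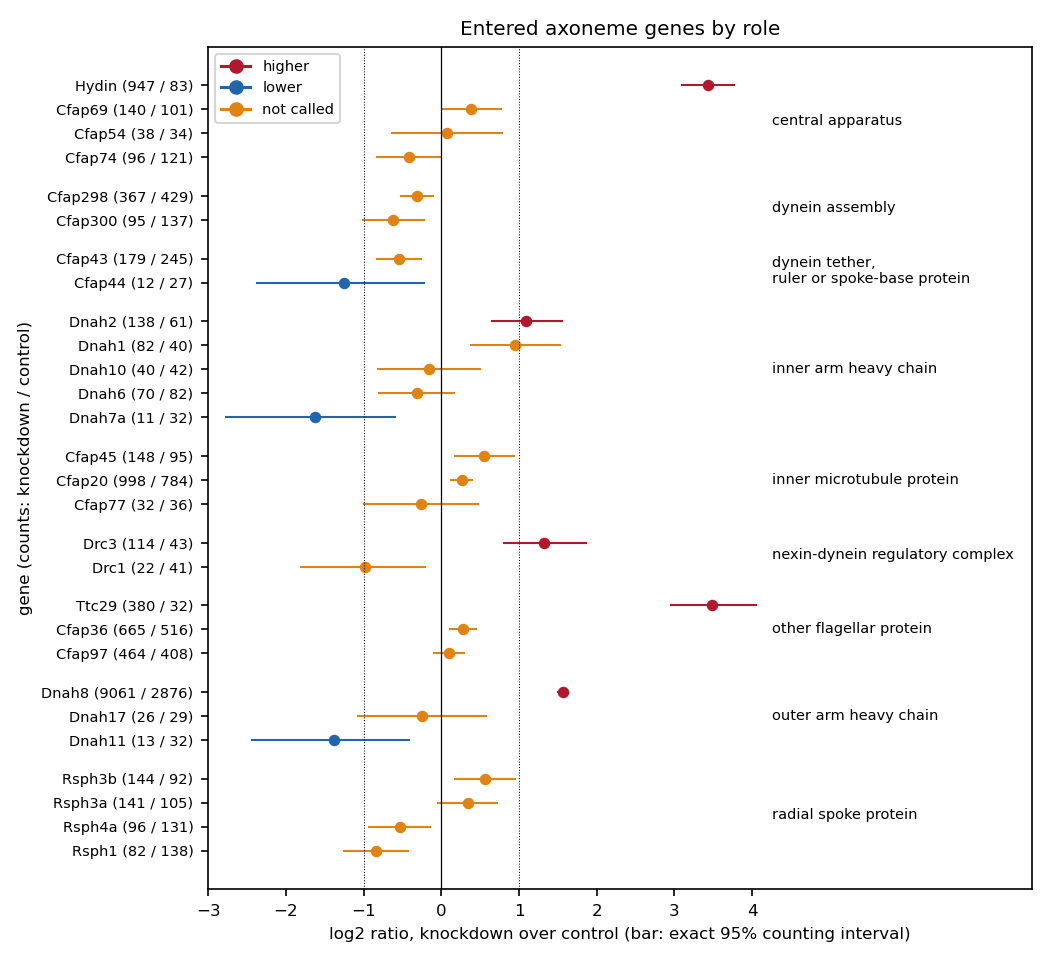
Log2 ratio of knockdown over control with its exact 95% counting interval for the 28 entered axoneme genes, grouped by role, with the counts in the knockdown and the control library in brackets after each name. Dotted lines mark 2-fold. Called genes of both directions occur among outer arm and among inner arm heavy chains, and no radial spoke gene was called.

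Dynein heavy chains, the motors themselves, differed in both directions. Of the 15 Dnah genes 8 entered, 2 called higher and 2 lower, with a median log2 ratio of -0.20. The shares over all entered genes were 4.68% higher and 9.48% lower. Beside Dnah8, Dnah2, an inner arm heavy chain, had 138 counts in the knockdown against 61 in the control library, 2.13-fold higher (1.56 to 2.93). With scaling to total counts its log2 ratio was 0.97, just under the threshold. Dnah1, another inner arm chain, lay just outside it, with 82 counts in the knockdown against 40 in the control library, 1.93-fold higher (1.31 to 2.89). Dnah7a, also an inner arm chain, had 11 counts in the knockdown against 32 in the control library, 3.09-fold lower (1.52 to 6.80). Dnah11, an outer arm chain of respiratory and nodal cilia, had 13 counts in the knockdown against 32 in the control library, 2.62-fold lower (1.34 to 5.43). Both lower chains were close to the entry level, and their intervals are wide.

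The other heavy chains described here were not called or did not enter. Dnah6 had 70 counts in the knockdown against 82 in the control library, Dnah10 had 40 in the knockdown against 42 in the control library, and Dnah17, an outer arm chain of sperm, had 26 in the knockdown against 29 in the control library. Dnah5, the outer arm chain most often mutated in human primary ciliary dyskinesia, had 3 counts in the knockdown against 24 in the control library. At 0.117 CPM in the knockdown against 0.995 CPM in the control library it fell just under the entry level, and its ratio was 8.50-fold lower (2.58 to 44.1). Dnah9, the partner of Dnah5 in the outer arms of airway cilia, had 3 counts in the knockdown against 2 in the control library. Dnah5 was thus near 0 in the knockdown library, and Dnah9 in both libraries. Dnah8 was the outer arm chain with the highest level per kb in both libraries.

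Dnah7a, Dnah7b and Dnah7c are near-identical copies, so that reads may have been split between them or lost. In words of 50 bases, 38.6% of Dnah7a, 30.1% of Dnah7b and 46.8% of Dnah7c recur in another gene. Dnah7b had 14 counts in the knockdown against 16 in the control library, and Dnah7c had 2 in the knockdown against 10 in the control library, so the ratios of this trio are uncertain. By the same measure 2.29% of Dnah8 and 0.840% of Hydin recur elsewhere, and 22 of the 58 genes share no word.

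In the nexin-dynein regulatory complex, Drc3 was called higher, with 114 counts in the knockdown against 43 in the control library, 2.50-fold (1.74 to 3.63). Drc1, a scaffold of the same complex, went the other way, with 22 counts in the knockdown against 41 in the control library. It was 1.98-fold lower (1.15 to 3.49), just outside the threshold, and passed it when scaled to total counts (log2 ratio -1.10) or centred by gene length (-1.01). Drc7 had 10 counts in the knockdown against 17 in the control library and did not enter. Subunits of 1 complex thus had ratios of opposite sign.

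None of the 8 radial spoke genes was called, and 4 of them entered, with a median log2 ratio of -0.10. The shares called over all entered genes were 4.68% higher and 9.48% lower. Rsph1, a spoke head protein, had 82 counts in the knockdown against 138 in the control library, a log2 ratio of -0.84. Rsph4a, also of the spoke head, had 96 counts in the knockdown against 131 in the control library, a log2 ratio of -0.54. The spoke stalk genes Rsph3a and Rsph3b had 141 and 144 counts in the knockdown library and 105 and 92 in the control library. Since 58.1% of the words of Rsph3a and 69.2% of those of Rsph3b recur in another gene, mostly each in the other, their separate ratios are uncertain. Rsph6a, Rsph9, Rsph10b and Rsph14 stayed under the entry level, with 1 to 21 counts in the knockdown and 3 to 24 in the control library.

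The other central apparatus genes that entered were not called. Cfap69 had 140 counts in the knockdown against 101 in the control library, Cfap54 had 38 in the knockdown against 34 in the control library, and Cfap74 had 96 in the knockdown against 121 in the control library. Their log2 ratios were 0.38, 0.07 and -0.42. Cfap46, Cfap65 and Cfap221 did not enter.

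Among the Cfap genes 12 of 30 entered, none was called higher and 1, Cfap44, was called lower, with a median log2 ratio of -0.09. The shares over all entered genes were 4.68% higher and 9.48% lower. Cfap44, which with Cfap43 tethers an inner arm dynein to the doublet, had 12 counts in the knockdown against 27 in the control library, 2.39-fold lower (1.17 to 5.18). Cfap43 had 179 counts in the knockdown against 245 in the control library, a log2 ratio of -0.54, and was not called. Cfap300 and Cfap298, which act in dynein arm assembly, were not called. Cfap300 had 95 counts in the knockdown against 137 in the control library, a log2 ratio of -0.62, and Cfap298 had 367 in the knockdown against 429 in the control library, a log2 ratio of -0.31, with 36.0% of its words shared with other gene models.

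Several Cfap genes with more counts differed little between the libraries. Cfap20, a protein of the inner junction of doublets that primary cilia also contain, had 998 counts in the knockdown against 784 in the control library, 1.20-fold higher (1.09 to 1.32). Cfap36, which binds the ciliary GTPase ARL3, had 665 counts in the knockdown against 516 in the control library, 1.21-fold higher (1.08 to 1.36). Cfap97 had 464 counts in the knockdown against 408 in the control library, a log2 ratio of 0.10, or -0.02 with scaling to total counts. Cfap45, a protein inside the doublet microtubules, had 148 counts in the knockdown against 95 in the control library, a log2 ratio of 0.55. None of the 4 reached the 2-fold threshold.

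Without the entry level, 5 more axoneme genes passed the size rule, each with at most 24 counts in a library. Beside Dnah5 and Dnah7c, Cfap52, a protein inside the doublets, had 2 counts in the knockdown against 10 in the control library, 5.31-fold lower (1.13 to 49.9). Cfap299 had 0 counts in the knockdown against 15 in the control library, at least 5.31-fold lower when the 0 is set to a floor of 3 counts in that library. Cfap70, an outer arm regulator, went the other way, with 22 counts in the knockdown against 7 in the control library, 2.96-fold higher (1.22 to 8.20). Counting them, 6 of 50 genes were higher and 7 lower, against 4.59% higher and 9.19% lower of all 21924 genes compared in that way.

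Ttc29 and Hydin had been chosen for their high ratio, so their calls under every setting that kept them are a description. The call of Dnah8 was lost only at 4-fold among the settings that kept it, and the other calls varied more. With scaling to total counts 4 axoneme genes were higher and 5 lower, where 3.62% and 11.4% of all genes were. With a filter of 5 CPM 4 of 17 were higher and 0 lower, where 2.86% and 6.31% of all genes were. Of those 4, Hydin, Ttc29 and Dnah2 reached 5 CPM only in the knockdown library, where they were higher. Only Dnah8 reached it in both libraries. At 1.5-fold 6 were higher and 6 lower, beside 11.5% and 16.4% of all genes, and at 4-fold only Hydin and Ttc29 were called, beside 0.959% higher and 2.45% lower. DESeq2 size factors (5.17% of all genes higher, 9.03% lower), a prior count of 2 (4.4% and 9.1%) and centring by expression level (5.2% and 9.01%) called the same 8 axoneme genes. Centring by gene length (4.44% and 9.75%) called Drc1 in addition.

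The genes around the axoneme genes that differed most were set beside them. Of all entered genes, 4.68% were called higher and 9.48% lower. Among 27 entered protein-coding genes within 1000 kb of Hydin, 1 was called higher and 2 lower, with a median log2 ratio of 0.12. Its nearest neighbour Vac14 had 1319 counts in the knockdown against 1223 in the control library, and Cmtr2, on its other side, had 243 in the knockdown against 173 in the control library. The 10.7-fold difference of Hydin was therefore not shared by the protein-coding genes next to it. Around Dnah8, 1 of 20 entered protein-coding neighbours was called higher and none lower, with a median of -0.05. The noncoding RNA 1700097N02Rik, which overlaps Dnah8 on the opposite strand, was not among them and was 3.15-fold higher (2.69 to 3.71). The difference of Dnah8 was thus not confined to Dnah8 at this locus. Glo1, whose span overlaps that of Dnah8 and whose start lies 2.52 kb from the Dnah8 start, had a log2 ratio of 0.36. It had 4108 counts in the knockdown against 3020 in the control library.

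Ttc29 had a neighbour that differed in the same direction. Pou4f2, a POU homeodomain transcription factor gene separated from Ttc29 by a gap of 38.7 kb, had 221 counts in the knockdown against 30 in the control library. It was 6.93-fold higher (4.72 to 10.5). The next genes, Rbmxl1 and Slc10a7, had log2 ratios of 0.18 and 0.30 and were not called, and 1 of the 12 entered neighbours was higher and 1 lower. Cfap299 lay among genes that were lower in the knockdown library. Fgf5, a growth factor of the formative epiblast 52.3 kb before it, had 5 counts in the knockdown against 649 in the control library, 138-fold lower, and Antxr2 and Prkg2 were 2.53-fold and 2.44-fold lower. Of the 4 entered neighbours of Cfap299, 3 were called lower. The shares over all entered genes were 4.68% higher and 9.48% lower.

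**Figure D4:**
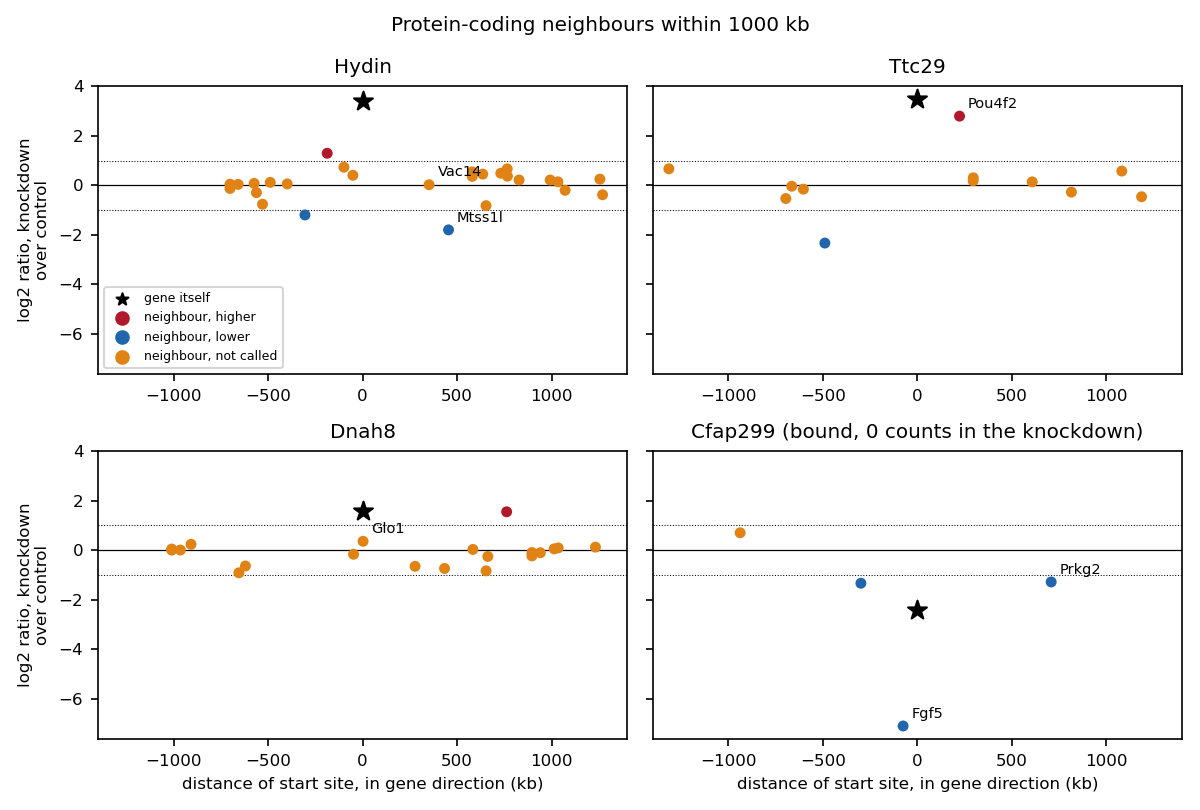
Log2 ratio of knockdown over control of the entered protein-coding genes within 1000 kb of Hydin, Ttc29, Dnah8 and Cfap299, against the distance of their start from the start of that gene in its direction (kb). The star is the gene itself, for Cfap299 as a bound, and colours give the call of each neighbour. Hydin and Dnah8 stand apart from their nearest protein-coding neighbours, and noncoding genes are not drawn. The start of Pou4f2 lies at 223 kb from that of Ttc29, and its ratio is also high. The start of Fgf5 lies at -75.1 kb from that of Cfap299, and its ratio is also low.

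The counting's strand setting is not given, so reads of genes that overlap on opposite strands cannot be told apart. Exons of 26 of the 58 genes overlap those of another annotated gene. For Dnah8 the overlap with the opposite-strand noncoding RNA 1700097N02Rik is 207 bases, or 0.772% of its exons. That RNA had 673 counts in the knockdown against 201 in the control library, 3.15-fold higher (2.69 to 3.71), close to the ratio of Dnah8. Of the exons of Dnah11, 642 bases (4.44%) overlap exons of Cdca7l, which had 562 counts in the knockdown against 705 in the control library. Hydin shares 237 bases (1.31%) with Gm26832, which had 1 count in the knockdown against 0 in the control library, and Ttc29 shares no exon with another gene.

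The regulators of motile cilium genes were set beside the axoneme genes. Of 16 ciliogenic regulators 13 entered, none was called higher and 3 were called lower, with a median log2 ratio of -0.21. Over all entered genes 4.68% were higher and 9.48% lower. The 3 lie under 10 CPM in both libraries, a level at which 16.3% of entered genes were lower. Foxj1 had 61 counts in the knockdown against 143 in the control library, 2.49-fold lower (1.83 to 3.42). Trp73, the gene of p73, had 27 counts in the knockdown against 101 in the control library, 3.97-fold lower (2.58 to 6.32). Ccno, a cyclin of centriole amplification, had 13 counts in the knockdown against 33 in the control library, 2.70-fold lower (1.38 to 5.58). The size and direction of these 3 differences are a description of the 2 libraries, and 10 entered regulators were not called.

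The RFX genes were present in both libraries and none was called. Rfx1 had 325 counts in the knockdown against 457 in the control library, Rfx2 had 495 in the knockdown against 564 in the control library, and Rfx3 had 556 in the knockdown against 416 in the control library. Rfx4 had 53 counts in the knockdown against 31 in the control library, and Rfx7 had 2491 in the knockdown against 2266 in the control library. Their log2 ratios were -0.58, -0.28, 0.33, 0.69 and 0.05, and that of Rfx7 became -0.07 with scaling to total counts. Mcidas had 1 count in each library, and Gmnc had 7 in the knockdown against 13 in the control library. Myb, E2f4, E2f5, Tfdp1 and Foxn4 had log2 ratios between -0.38 and 0.15.

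Of the genes for dynein assembly, docking and the smaller dynein chains, 3 were called, all higher, where 4.68% of all entered genes were higher. All 3 lie under 10 CPM in both libraries, a level at which 8.18% of entered genes were higher. Ccdc103 and Ccdc63 reached the entry level only in the knockdown library. Of 11 entered dynein assembly factors 2 were called higher and none lower: Dyx1c1 had 82 counts in the knockdown against 30 in the control library, 2.57-fold higher (1.67 to 4.05), and Ccdc103 had 28 in the knockdown against 7 in the control library, 3.76-fold higher (1.61 to 10.2). Of 4 entered genes of the outer arm docking complex 1 was called, the sperm docking protein gene Ccdc63, with 87 counts in the knockdown against 16 in the control library, 5.12-fold higher (2.98 to 9.35). Its counterpart in motile cilia, Ccdc114, had 181 counts in the knockdown against 245 in the control library. None of 7 entered intermediate and light chain genes was called, and the most abundant of them, Dynll1 and Dynlt1b, had log2 ratios of -0.44 and 0.31.

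The remaining structural lists held single calls in both directions, where 4.68% of all entered genes were called higher and 9.48% lower. Ccdc40, part of the ruler that sets the axonemal repeat, had 151 counts in the knockdown against 350 in the control library, 2.46-fold lower (2.03 to 3.00), and was the only call among 5 entered genes of its list. Spag16, of the central apparatus, had 11 counts in the knockdown against 39 in the control library, 3.77-fold lower (1.89 to 8.15), the only call among 7. Efhc2, of the doublet lumen, had 48 counts in the knockdown against 120 in the control library, 2.66-fold lower (1.89 to 3.79), the only call among 8. Lrrc34, a spoke-associated protein also described in the nucleolus of pluripotent cells, had 1950 counts in the knockdown against 714 in the control library, 2.57-fold higher (2.36 to 2.80), 1 of 2 entered genes on its list.

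Genes of cilium building that primary cilia also use were called at 1 gene in each of their lists. Of all entered genes, 4.68% were called higher and 9.48% lower. All 30 intraflagellar transport genes entered, with a median log2 ratio of 0.11, and 1 was called, Ift20, with 520 counts in the knockdown against 238 in the control library, 2.06-fold higher (1.76 to 2.41). All 12 BBSome and related genes entered, with a median of 0.38, and 1 was called, Bbs12, with 102 counts in the knockdown against 48 in the control library, 2.00-fold higher (1.41 to 2.88). Both calls sit on the threshold and were lost with scaling to total counts and with centring by gene length.

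**Figure D5:**
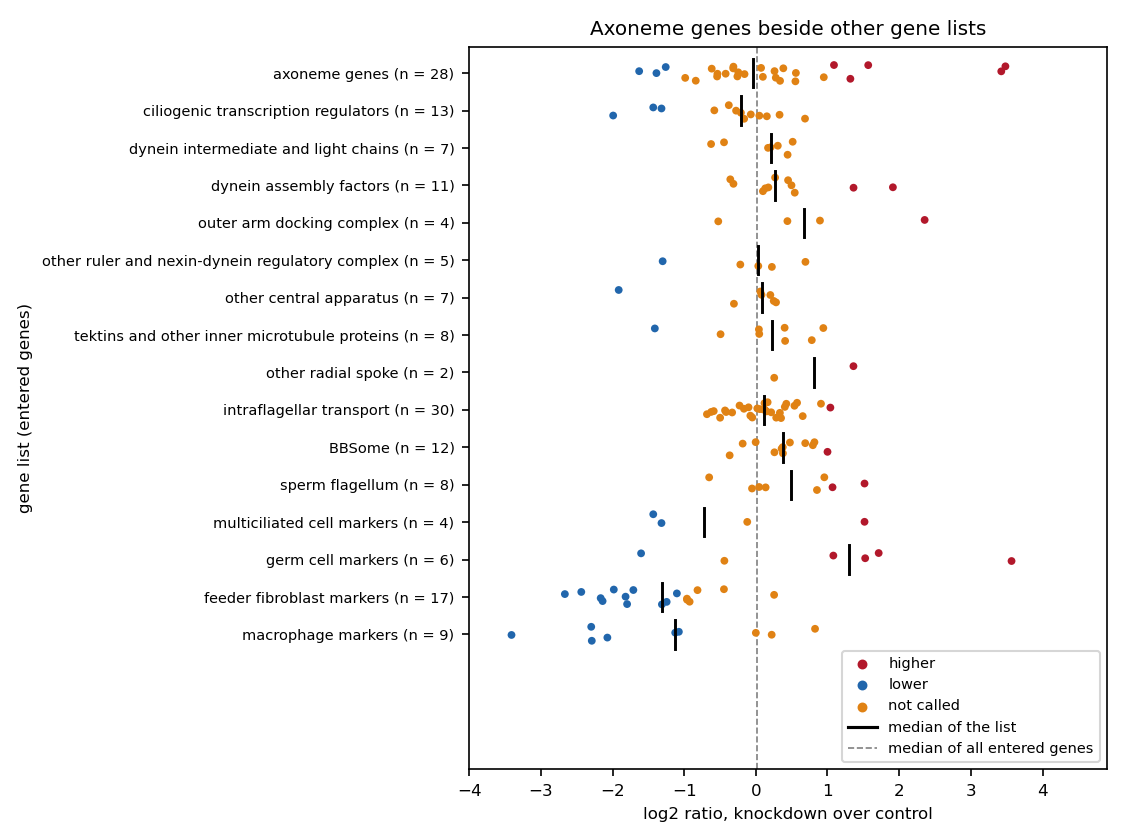
Log2 ratio of knockdown over control for the entered genes of the axoneme set and of 15 other lists, 1 point per gene, with the median of each list as a black bar and the median of all entered genes as a dashed line. Points are spread at random in height within a row, and n is the number of entered genes. The other structural, assembly, transport and sperm flagellum lists have medians from 0.03 to 0.81, above the dashed line, and at most 2 called genes each. Ciliogenic regulators have calls only on the lower side, and the feeder fibroblast and macrophage lists lie mainly below the dashed line.

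Most markers of cell types that carry motile cilia or flagella did not enter. Of 12 multiciliated cell markers 4 entered, 1 called higher (Ak7) and 2 lower (Foxj1 and Ccno). Over all entered genes 4.68% were higher and 9.48% lower. Foxj1 and Ccno are also on the list of ciliogenic regulators, so these are the same 2 calls as above. The summed level of the 12 markers was 19.7 CPM in the knockdown against 21.6 CPM in the control library. Tmem212 and Sntn had 0 counts in both libraries, Mcidas, Deup1, Dynlrb2 and Ccdc153 had at most 2 in either, and most of the sum came from Tppp3, with 264 counts in the knockdown against 270 in the control library. Of 25 sperm flagellum genes 8 entered, 2 called higher and none lower, and 8 others, among them Akap4 and Catsper1, had 0 counts in both libraries. Ak7, an adenylate kinase of motile cilia and sperm that is also on the multiciliated list, had 152 counts in the knockdown against 50 in the control library, 2.86-fold higher (2.07 to 4.02). Catsperd, a sperm calcium channel subunit gene, had 58 counts in the knockdown against 26 in the control library, 2.10-fold higher (1.30 to 3.47), and was not called with scaling to total counts.

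Germ cell markers differed in both directions beside the axoneme genes. Of 11, 6 entered, 4 called higher and 1 lower, where 4.68% of all entered genes were higher and 9.48% lower. The summed level of the 11 markers was 52.3 CPM in the knockdown against 46.6 CPM in the control library. Stra8, a gene of meiotic entry, had 63 counts in the knockdown against 5 in the control library, 11.9-fold higher (4.82 to 37.8). Dazl, Mael and Ddx4 were 3.28-fold, 2.88-fold and 2.12-fold higher. Sycp3, of the meiotic chromosome axis, had 249 counts in the knockdown against 711 in the control library, 3.03-fold lower (2.62 to 3.52). Prm1, Prm2, Tnp1 and Acrv1, which mark spermatids, had 0 counts in both libraries. The part of germ cell genes in these results was not tested.

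Many feeder fibroblast and macrophage markers were called lower in the knockdown library. Of all entered genes, 9.48% were called lower and 4.68% higher. All 17 fibroblast markers entered, 11 called lower and none higher, and their summed level was 441 CPM in the knockdown against 1314 CPM in the control library. Dcn, with 511 counts in the knockdown against 403 in the control library, was the 1 fibroblast marker with a ratio above 1. Of 12 macrophage markers 9 entered, 6 called lower and none higher, and the sum was 33.7 CPM in the knockdown against 58.9 CPM in the control library. The other 3 entered macrophage markers, Adgre1, Cd68 and Itgam, were not called and had log2 ratios of 0.83, 0.22 and 0.00. The part of other cells in the ratios of the axoneme genes and ciliogenic regulators was not tested. Chromosome 14, which carries Dnah1, Dnah12 and Cfap70, had a median log2 ratio of -0.43 over its 537 entered genes.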

How the data were processed

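The deposited table holds raw read counts per gene for 2 libraries, with a gene length column, and no further sample columns. The submitters' processing notes name the tools Trim Galore, HISAT2, featureCounts and DESeq and, as builds, mm10 and GRCm38. Not given in the sources used here are tool versions, strand setting, annotation release and how overlapping genes or repeated reads were treated, and the depth is that of the totals stated above. Symbols came from GENCODE vM21, which matched 46488 identifiers and left 495 unmatched, and start regions from RefSeq (GRCm38.p6), which covered 47 of the 58 genes. The deposited length equals the merged exons of GENCODE vM21 for 35 of the 58 genes, so levels per kb of the others depend on the length used.

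TMM factors, computed with edgeR 4.0.16 in R 4.3.3, were 0.960 (knockdown) and 1.04 (control). Python 3.11.15 was used for ratios and intervals, with scipy 1.17.1, pandas 2.3.3 and numpy 2.4.6, and matplotlib 3.10.9 for plots. Ratios carry no pseudocount, a count of 0 was set to 3 counts in that library, and no ratio was given where both counts were at most 3.

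The genes and all lists were chosen with earlier results of these data known. The text names the genes of the rule that were called, abundant or close to the threshold, the highest of each role, the called or most abundant members of each other list, the ciliogenic regulators, and overlapping genes, except for an item that is not reported here. Other genes were named after their values were seen. Alternatives were scaling to total counts or by DESeq2 1.42.0 size factors, no filter or 5 CPM, a prior count of 2, 1.5-fold and 4-fold thresholds, centring by gene length or level in 10 bins, and leaving out genes.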

Additional observations from a re-analysis of the deposited data

How the results depend on the processing

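Scaling to total counts put the median over all entered genes at a log2 ratio of -0.10, against 0.02 with TMM scaling. It gave 5 axoneme genes called lower, where 11.4% of all genes were, and a summed log2 ratio of 0.86. With no filter on low counts 7 were called lower (9.19% of all genes), with a filter of 5 CPM none of 17 (0 lower, against 6.31% of all genes). At 1.5-fold 6 were called lower (16.4% of all genes), and at 4-fold 2 were called higher (0.959%) and 0 lower (2.45%). Without Hydin and Ttc29, 3 were called higher and the summed log2 ratio was 0.87. Without genes whose exons overlap another gene, which leaves out Dnah8, Hydin, Dnah2 and the lower Dnah11, 2 of 13 were called higher and 2 lower. The higher genes left in are Drc3 and Ttc29, and Ttc29 had been chosen for its high ratio. The summed log2 ratio was then 0.27. Without Dnah8 it was 0.37, and without Dnah8, Hydin and Ttc29 it was 0.033, both chosen after seeing the data. As reported, 5 were called higher and 3 lower, with a summed log2 ratio of 0.98. For this setting, and where axoneme genes were left out, the shares over all entered genes were 4.68% higher and 9.48% lower. DESeq2 size factors, a prior count of 2 and centring by expression level left the same 8 genes called, and centring by length added Drc1. For the named genes under the other 2 scalings, the prior count and both centrings, 7 calls were lost and 3 gained, and no call changed direction. The uncalled Cfap97 and Rfx7 changed sign, to -0.02 and -0.07 with scaling to total counts, and Rfx7 to -0.03 with centring by expression level. Of the axoneme calls, 4 were lost at 5 CPM and 6 at 4-fold, and 5 were gained with no filter and 4 at 1.5-fold. Centring was not run for the summed counts, since the genes fall in different bins. Where fewer genes were left in, the construction of the alternative gives the difference, and otherwise the cause was not tested. No paired analysis was possible because each group has 1 library and no replicate number. Depth limits the genes under about 26 counts, whose intervals span several-fold.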
